A study of Mus musculus with 11 samples.

Results

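The transcripts of 10 genes that respond to hypoxia-inducible factor (HIF) or regulate glycolysis were examined in the gingival epithelium of mice whose Langerhans cells (LCs) had been depleted early in life. The genes were Ankrd37, Hk2, Slc2a1, Pfkfb3, Vegfa, Bnip3, Egln3, Ldha, Pdk1 and Hif1a. They were picked by name as HIF targets that are not immediate early genes, among 19170 genes with values of 55414 listed. Hif1a was put among them although it encodes a subunit of HIF itself. The picking was done with the values of these genes after diphtheria toxin (DT) and after PBS in view. The differences between DT and PBS are therefore given for these genes as a description, with no test. The question put to them was whether a hypoxia response differed between the groups.

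All 11 mice were langerin-DTR mice. In these the receptor for diphtheria toxin is placed under the control of langerin, a protein of LCs, so that cells expressing it are killed by DT. The study's methods describe males, while its reporting summary says that the findings hold for both sexes. The controls carried the same transgene and received PBS (n = 5), and the depleted mice received DT (n = 6), in each case at the age of 17, 24 and 31 days. Gingival epithelium was collected at 8 weeks of age, weeks after the last injection, a time by which LCs had returned to the epithelium by the study's flow cytometry. Each value is a normalized count, which is the number of reads on a gene in 1 mouse divided by a size factor for that mouse.

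HIF is a transcription factor made of an oxygen-labile alpha subunit, such as the product of Hif1a or Epas1, and a stable partner encoded by Arnt. With oxygen present, prolyl hydroxylases encoded by the Egln genes mark the alpha subunit for destruction through the von Hippel-Lindau protein. When oxygen falls, HIF binds short DNA elements with the core ACGTG or GCGTG and raises genes for glucose uptake, glycolysis, blood vessel growth and the removal of mitochondria. Since the alpha subunit is controlled mostly as a protein, the level of the Hif1a transcript is a poor gauge of HIF activity, and the transcripts of its targets are commonly read in its place.

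To show where this core lies in the chosen genes, the 250 bases before the start of each gene were taken from RefSeq (GRCm38.p6) and searched for ACGTG on both strands, which is the same as a search for ACGTG and CACGT on the strand of the gene. All 10 genes had a window, the first listed being used where there were 2. The core was present in 8 of the 10, and in 2661 of 12912 genes with values that had a window (20.6%), or in 5444 of all 32851 windows (16.6%). The other form, GCGTG or CACGC, was in 4 of the 10 windows, against 41.9% of genes with values and 28.2% of all windows. The windows of the 10 genes had a median GC content of 66.8%, against 58.8% for genes with values. Vegfa and Pdk1 had no ACGTG in this window, which says only that these letters are not there. The match nearest the start is printed for each of the other genes, and both matches for Ankrd37, the gene with the largest difference, as 29 bases read 5′ to 3′ on the strand that carries the core, with ACGTG in capitals.
Ankrd37, 241 bases before the start, chr8:46000072-46000100, minus strand: cccagcagtACGTGcctagctcggctcgc
Ankrd37, 6 bases before the start, chr8:45999851-45999879, minus strand: gctgcacatgtcagtgtttgggtACGTGa
Slc2a1, 36 bases before the start, chr4:119108697-119108725, plus strand: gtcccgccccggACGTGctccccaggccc
Hk2, 52 bases before the start, chr6:82774490-82774518, plus strand: ccccggacagtgACGTGgatgtgctcatt
Pfkfb3, 60 bases before the start, chr2:11553973-11554001, minus strand: ctccgcgccgtgACGTGccaagctgtgac
Ldha, 34 bases before the start, chr7:46845758-46845786, minus strand: ggagcccagcggACGTGcgggaacccacg
Bnip3, 107 bases before the start, chr7:138909597-138909625, minus strand: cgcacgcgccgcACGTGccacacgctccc
Egln3, 229 bases before the start, chr12:54204087-54204115, minus strand: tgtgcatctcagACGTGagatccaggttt
Hif1a, 70 bases before the start, chr12:73907785-73907813, plus strand: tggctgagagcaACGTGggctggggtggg
Ldha held the core at 5 positions and Hif1a at 3, where a CACGTG counts on each strand. In GENCODE, whose transcripts may start elsewhere, the nearer Ankrd37 site and those of Slc2a1 and Pfkfb3 touched an exon of the same gene. The farther Ankrd37 site and those of Ldha and Hif1a lay inside the span of the same gene but outside exons. The sites of Hk2, Bnip3 and Egln3 lay outside any gene. Distances before the start are counted from the RefSeq start. A match is a description of the sequence and not a bound site, since binding was not measured here. The 10 genes were picked as HIF targets, so more matches among them than among all genes are not independent evidence.

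Between 17509328 and 24325513 reads per mouse were recovered from the values, with medians of 20164510 after PBS and 20859075 after DT. The tissue was epithelial in all 11 mice, as 12 keratinocyte markers, led by Krt13 with a mean of 892700 normalized counts, took 13.4% to 14.6% of the counts. The summed fibroblast markers took at most 0.00785% of the counts, and the summed endothelial and skeletal muscle markers lay between 54.4 and 128 and between 49.2 and 103 normalized counts. Mice PBS 3 and PBS 5 stood apart by 6 summed LC markers, at 4129 and 3360 against 1388 to 2566 normalized counts in the other mice. Cd74 led this sum, with a mean of 1120 normalized counts. Cd207, the langerin gene, had 10.0 to 43.0 after PBS and 15.8 to 21.6 after DT. Since Cd74 is not particular to LCs, the sum does not measure LC content alone. The summed leukocyte markers, led by S100a8, were also high in PBS 3 and PBS 5, at 1285 and 1549 normalized counts. The other PBS mice had 504 to 558 and the DT mice 458 to 1879. The summed erythroid and salivary gland markers lay between 76.9 and 268 and between 66.7 and 257 normalized counts. Results for the chosen genes and calls of pathway genes are given with and without PBS 3 and PBS 5. Fewer cells of a type and less RNA per cell cannot be told apart in such bulk samples.

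The labels name a stranded mRNA kit for the libraries, while the methods refer to a QuantSeq guide, written for 3′ end libraries, for the processing of the reads. A level per length holds only where reads cover whole transcripts, which was not tested. When levels were compared per kilobase of exon, Ldha stood highest of the 10 genes and Pfkfb3 lowest. The lactate dehydrogenase gene Ldha had 3588 ± 394 normalized counts per kilobase (SD, n = 11 mice), which placed it at the 98.3 percentile of the 13477 genes that averaged 10 or more normalized counts. It was followed by Egln3 with 1277 ± 345 (SD), Hif1a with 892 ± 57.3 (SD) and Slc2a1 with 647 ± 111 (SD) normalized counts per kilobase. Hk2 had 306.5 ± 49.9 (SD), Bnip3 244 ± 40.9 (SD), Pdk1 179 ± 6.47 (SD) and Vegfa 178 ± 26.6 (SD) normalized counts per kilobase. Ankrd37 with 43.0 ± 15.5 (SD) and Pfkfb3 with 22.1 ± 6.61 (SD) normalized counts per kilobase came last. The ranges over mice of neighbours in this order overlapped for Egln3 and Hif1a, for each neighbouring pair from Hk2 to Vegfa, and for Ankrd37 and Pfkfb3, and did not overlap for the other neighbours. In normalized counts not divided by length, Ldha was again the highest, Ankrd37 was lower than Pfkfb3 and Hif1a was above Egln3.

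Some of the genes made up nearly all of the summed level with the paralogs named here and others little of it. The paralogs were picked by name and do not always make up the whole family. Slc2a1, the glucose transporter GLUT1, held 99.4% ± 0.111 (SD, n = 11) of the summed level per kilobase of Slc2a1 and Slc2a3, and Ldha held 94.4% ± 0.422 (SD, n = 11) of that of Ldha and Ldhb. Hk2, an inducible hexokinase, held 32.8% ± 3.13 (SD, n = 11) of that of Hk2, Hk1 and Hkdc1, with Hk1 at 623 normalized counts per kilobase. The share of Hk2 was 21.0% when the longest transcript was used as the length in place of all exons. Pfkfb3 held 10.5% ± 2.20 (SD, n = 11) of the level of the bifunctional enzymes that set fructose 2,6-bisphosphate, of which Pfkfb4 was the highest at 146 normalized counts per kilobase. Pdk1, a kinase that inactivates pyruvate dehydrogenase, held 18.8% ± 1.09 (SD, n = 11), and Pdk3 was the leading kinase at 688 normalized counts per kilobase. Bnip3 held 21.0% ± 2.94 (SD, n = 11) beside its paralog Bnip3l, Egln3 49.0% ± 5.52 (SD, n = 11) beside Egln1 and Egln2, Vegfa 67.1% ± 3.83 (SD, n = 11) beside Vegfb, Vegfc and Pgf, and Hif1a 57.0% ± 2.38 (SD, n = 11) beside Epas1. The plot of levels by family shows these orders in both groups.

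**Figure D1:**
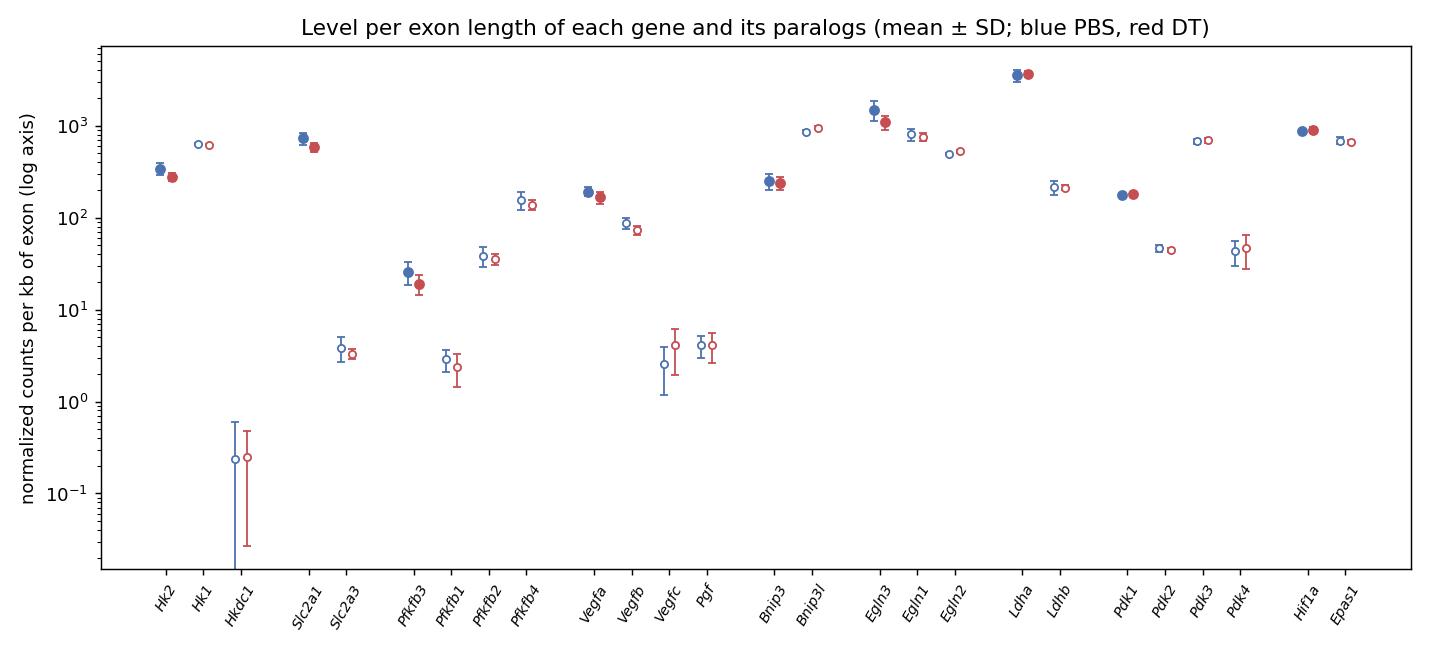
Mean ± SD of normalized counts per kilobase of exon (log axis) after PBS (blue, 5 mice) and DT (red, 6 mice), with filled points for the chosen genes and open points for their paralogs, grouped by family; the lower error bar of Hkdc1 runs below the axis. Slc2a1 and Ldha tower over their paralogs, while Hk2, Pfkfb3, Bnip3 and Pdk1 lie below Hk1, Pfkfb4, Bnip3l and Pdk3.

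Of the 10 genes, 7 had a lower and 3 a higher mean log2 level after DT than after PBS. The median log2 fold change of the 10 was -0.25, beside -0.01 over all 19170 genes tested. With limma on log2(normalized count + 1), 107 genes passed an adjusted p of 0.1 in either direction (0.558%) and 47 of them were lower after DT (0.245%), and the 10 genes contributed 1, Ankrd37, to the latter. At an unadjusted p under 0.05 there were 2204 genes (11.5%), with 6 of the 10 among them. Nothing is read from these counts, because the same contrast was in view when the genes were picked. The genes split into a set with lower means, in which Ankrd37 had the largest difference, and Bnip3, Ldha, Pdk1 and Hif1a, whose group means differed by less than 4%.

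Ankrd37 encodes a small ankyrin repeat protein and is a HIF target. It lies on chromosome 8 of GRCm38 from 45996902 to 46005707 on the minus strand. It had 70.2, 104, 76.4, 64.7 and 114 normalized counts from mouse PBS 1 to mouse PBS 5, and between 44.3 and 58.3 with a median of 47.1 after DT. Every DT mouse was below every PBS mouse, the only case among the 10 genes. Of these 13477 better-measured genes, 119 were separated in this way with lower values after DT (0.883%). The means were 85.9 ± 21.9 (SD, n = 5) and 49.7 ± 6.02 (SD, n = 6), with a log2 fold change of -0.75 ± 0.16 (SE). These values rest on few reads, 42 to 109 per mouse, so that counting alone gives a coefficient of variation of 12.7%. When each mouse was left out in turn, in 11 fits, the log2 fold change stayed between -0.84 and -0.64. The limma adjusted p was under 0.1 in only 4 of these 11 fits. Nothing is read from this count either, since the contrast was in view when the gene was picked. Ankrd37 shared 349 bases of exon, 22.7% of its own, with Lrp2bp and 57 bases with Ufsp2, both on the opposite strand. Lrp2bp had at most 3.40 normalized counts and Ufsp2 between 456 and 561. The strand setting of the read counting is not given in the sources used here, so reads of Ankrd37 and of these genes cannot be told apart with certainty.

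Egln3 and Hif1a belong to the oxygen-sensing machinery itself. Egln3 (chromosome 12, 54178981 to 54203860, minus strand), a prolyl hydroxylase that HIF induces and that acts back on HIF, had 3022, 4172, 4679, 2946 and 5149 normalized counts from PBS 1 to PBS 5. After DT it had between 2082 and 3270, with a median of 3187. PBS 2, PBS 3 and PBS 5 were above every DT mouse, and PBS 1 and PBS 4 were within the range of the DT mice. The means were 3994 ± 984.5 (SD, n = 5) and 2903 ± 508 (SD, n = 6), a log2 fold change of -0.44 ± 0.15 (SE). Hif1a (chromosome 12, 73901375 to 73947530, plus strand) had 5279, 5192, 5273, 5042 and 5136 normalized counts from PBS 1 to PBS 5, and between 4879 and 6064 with a median of 5102 after DT. The PBS mice were nearly equal, with a coefficient of variation of 1.91% where counting alone gives 1.38%, and they lay within the wider range of the DT mice, whose coefficient of variation was 8.62%. The log2 fold change of Hif1a was 0.03 ± 0.06 (SE).

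Slc2a1 and Hk2 act at the entry of glucose, as Slc2a1 carries it into the cell and Hk2 phosphorylates it. Slc2a1 (chromosome 4, 119108711 to 119137983, plus strand) had 2492, 2792, 2646, 1940 and 2880.2 normalized counts from PBS 1 to PBS 5, and between 1813 and 2299.5 with a median of 2003 after DT. All PBS mice but PBS 4 were above every DT mouse. The means were 2550.0 ± 372 (SD, n = 5) and 2034 ± 213 (SD, n = 6), a log2 fold change of -0.32 ± 0.09 (SE), which became -0.41 without PBS 4. Hk2 (chromosome 6, 82725025 to 82774454, minus strand) had 2235, 2441, 1887, 1707 and 1913 normalized counts from PBS 1 to PBS 5, and between 1477 and 1875 with a median of 1611 after DT. PBS 4 was again the only PBS mouse inside the range of the DT mice. The means were 2036 ± 296 (SD, n = 5) and 1657 ± 169.6 (SD, n = 6), a log2 fold change of -0.29 ± 0.09 (SE).

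Pfkfb3 and Ldha act further along glycolysis. Pfkfb3 (chromosome 2, 11471433 to 11554077, minus strand), which makes the activator of phosphofructokinase, had 186, 200.2, 177, 131 and 281 normalized counts from PBS 1 to PBS 5, and between 102 and 190.1 with a median of 148 after DT. PBS 2 and PBS 5 were above every DT mouse and the other PBS mice were among them. The log2 fold change was -0.43 ± 0.18 (SE), and -0.29 without PBS 5, the mouse with the highest value. Ldha (chromosome 7, 46841475 to 46855627, plus strand), which turns pyruvate into lactate, had 10902, 11062, 13387, 9492 and 13611 normalized counts from PBS 1 to PBS 5, and between 11143 and 13394 with a median of 11960 after DT. The DT mice were all inside the range of the PBS mice, and the log2 fold change of Ldha was 0.05 ± 0.09 (SE). Pseudogene copies of Ldha are listed without values, and reads that fit both could be split between them.

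Pdk1 and Bnip3 act on the mitochondria, Pdk1 by inactivating pyruvate dehydrogenase and Bnip3 as a receptor for the removal of mitochondria by autophagy. Pdk1 (chromosome 2, 71873224 to 71903858, plus strand) had 1438, 1373, 1435, 1335 and 1365 normalized counts from PBS 1 to PBS 5, and between 1304 and 1464 with a median of 1414 after DT. This was the least variable of the 10 genes over both groups, with coefficients of variation of 3.28% and 4.12% where counting gives 2.67%, and its log2 fold change was 0.01 ± 0.05 (SE). Bnip3 (chromosome 7, 138890836 to 138909519, minus strand) had 635, 544, 657, 383 and 589 normalized counts from PBS 1 to PBS 5, and between 454 and 677 with a median of 529 after DT. PBS 4 had the lowest value of all mice and a DT mouse the highest, and the log2 fold change was -0.04 ± 0.13 (SE). An antisense gene, Gm45507, covers 504 bases (22.3%) of the exons of Bnip3 and is listed without a value.

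Vegfa (chromosome 17, 46016993 to 46032369, minus strand), a secreted growth factor for blood vessels, had 782, 977, 728, 827 and 796 normalized counts from PBS 1 to PBS 5, and between 577 and 881 with a median of 691 after DT. PBS 2 was above every DT mouse, and 4 DT mice were below every PBS mouse. The means were 822 ± 93.5 (SD, n = 5) and 711 ± 111 (SD, n = 6), a log2 fold change of -0.22 ± 0.10 (SE). PBS 4 was the lowest PBS mouse for 9 of the 10 genes, Vegfa being the exception, and PBS 5 was the highest for 5 of them. The plot of counts in each mouse shows that the ranges of the groups overlap for all genes but Ankrd37. Without PBS 3 and PBS 5 the log2 fold changes were -0.65 for Ankrd37, -0.35 for Hk2, -0.28 for Vegfa, -0.27 for Pfkfb3, -0.23 for Slc2a1 and -0.22 for Egln3, so that Egln3 and Pfkfb3 depended most on these mice. Those of Bnip3 and Ldha were then 0.08 and 0.20, and those of Pdk1 and Hif1a 0.02 and 0.04.

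**Figure D2:**
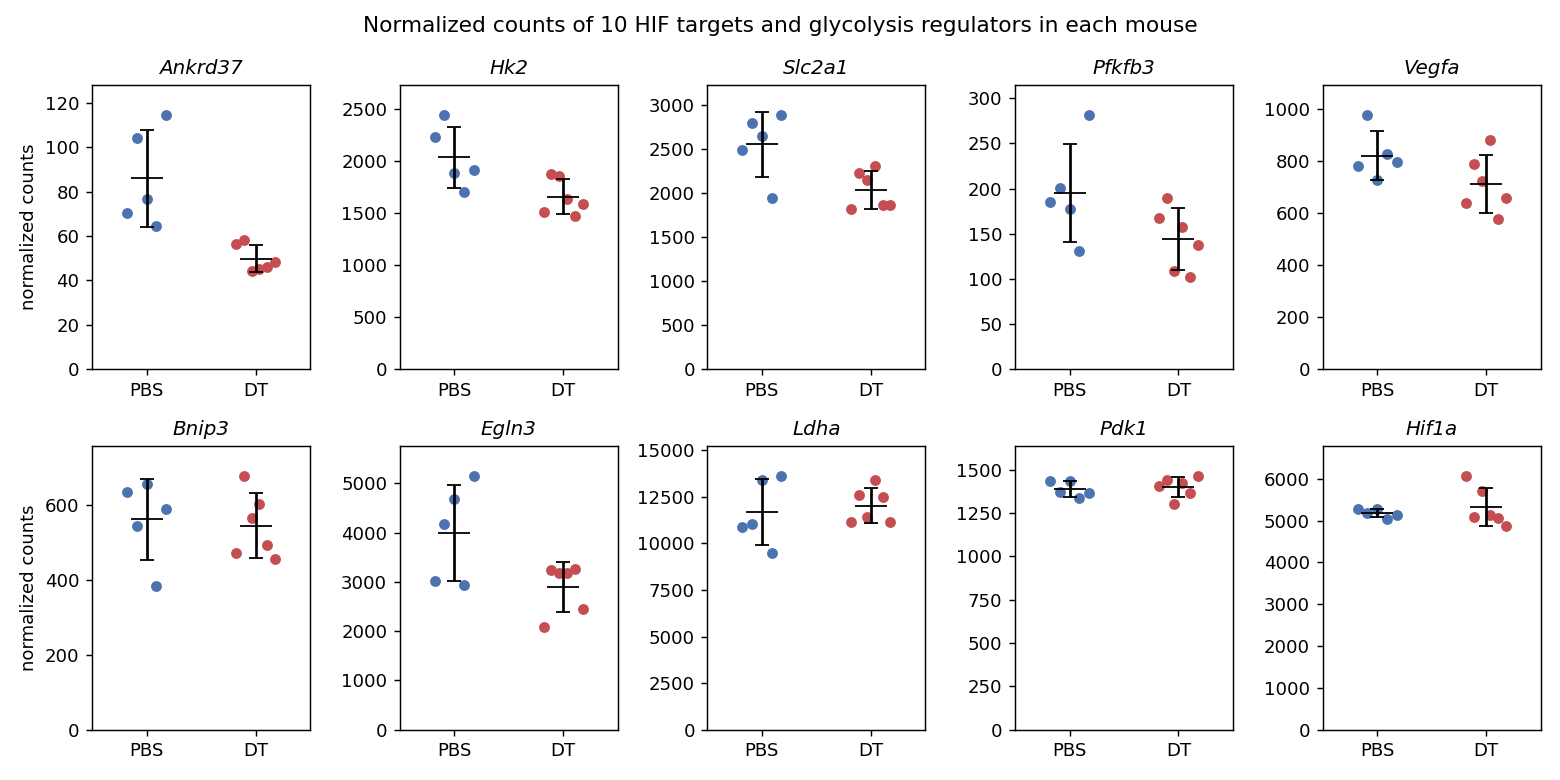
Normalized counts of the 10 genes in each mouse, after PBS (blue, 5 mice) and DT (red, 6 mice), with the mean ± SD in black and each vertical axis starting at 0. The groups are apart for Ankrd37, where the highest DT mouse had 58.3 and the lowest PBS mouse 64.7 normalized counts, and share a common range for the other 9 genes.

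To place these genes among the rest of the pathway, 5 further lists with 82 genes were examined, and 80 of these genes could be tested. The lists held the HIF subunits and oxygen sensors, glucose uptake and glycolysis, pyruvate entry with mitophagy and mitochondrial HIF targets, secreted HIF targets and other intracellular HIF targets. Pyruvate entry stands here for the pyruvate dehydrogenase step. With limma, 0 of the 80 genes passed an adjusted p of 0.1, while 9 had an unadjusted p under 0.05 (11.2%), beside 11.5% of all genes. Of the 80 genes 38 had higher and 42 lower mean levels after DT, and the median log2 fold change was -0.01, as over all genes. Hif3a and Epo were listed without values.

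Among 11 tested HIF subunits and oxygen sensors the log2 fold changes lay between -0.28 and 0.11 with a median of -0.01, and 0 had an unadjusted p under 0.05. The HIF-2 alpha gene Epas1 had a log2 fold change of -0.07 (95% interval -0.19 to 0.05), its partner Arnt -0.03 (-0.13 to 0.06) and the von Hippel-Lindau gene Vhl -0.06 (-0.23 to 0.11). The smallest p in the list belonged to Cul2, a scaffold of the ubiquitin ligase that removes the alpha subunits, with a log2 fold change of 0.11 ± 0.06 (SE, limma adjusted p = 0.488), and to Arnt2, a further partner, with -0.28 ± 0.16 (SE, limma adjusted p = 0.521). The Egln3 paralogs Egln1 and Egln2 had -0.09 (-0.28 to 0.10) and 0.08 (-0.02 to 0.18).

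In the glycolysis list, 11 of 22 genes had higher and 11 lower means after DT, with a median log2 fold change of -0.0012. For 3 main enzymes of the pathway the interval held 0 with all mice. Pkm, pyruvate kinase, had a log2 fold change of 0.01 (95% interval -0.10 to 0.12), Aldoa, an aldolase, 0.03 (-0.09 to 0.14), and Pgk1, phosphoglycerate kinase, 0.07 (-0.07 to 0.21). Hk1, the most abundant hexokinase, had -0.04 (-0.13 to 0.05). The lowest p were those of the phosphofructokinase genes Pfkm, with -0.13 ± 0.05 (SE, limma adjusted p = 0.327), and Pfkp, with -0.19 ± 0.08 (SE, limma adjusted p = 0.366). Neither passed the threshold with all mice, and without PBS 3 and PBS 5 Pfkp did (-0.28, limma adjusted p = 0.059), as did Pgk1 (0.18, limma adjusted p = 0.062) and Pfkfb2 (-0.39, limma adjusted p = 0.0417).

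Of 14 genes of pyruvate entry, mitophagy and mitochondria, 8 had higher and 6 lower means, with a median log2 fold change of 0.03. Bnip3l, the abundant paralog of Bnip3, had 3320.0 ± 129 (SD, n = 5) normalized counts after PBS and 3687 ± 157 (SD, n = 6) after DT, with a log2 fold change of 0.15 ± 0.05 (SE, limma adjusted p = 0.221). Pdp2, a phosphatase that acts against the Pdk kinases, had 213 ± 21.9 (SD, n = 5) and 174 ± 7.82 (SD, n = 6), with a log2 fold change of -0.28 ± 0.08 (SE, limma adjusted p = 0.203). Both fell short of the threshold with all mice and passed it without PBS 3 and PBS 5, Bnip3l with a log2 fold change of 0.18 (limma adjusted p = 0.0515) and Pdp2 with -0.34 (limma adjusted p = 0.0415).

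The widest differences among the HIF targets outside the 10 genes went in both directions. Adm, which encodes the vasodilator adrenomedullin, had 55.9 ± 20.4 (SD, n = 5) normalized counts after PBS and 98.2 ± 30.03 (SD, n = 6) after DT, with a log2 fold change of 0.82 ± 0.23 (SE, limma adjusted p = 0.196). In the same list of 14 secreted factors Vegfb had -0.24 ± 0.11 (SE, limma adjusted p = 0.416), and the median was -0.10. Among 19 other intracellular targets, with a median of -0.02, Ddit4, an inhibitor of mTOR signalling, had 825.5 ± 71.5 (SD, n = 5) and 663 ± 77.4 (SD, n = 6), with a log2 fold change of -0.32 ± 0.08 (SE, limma adjusted p = 0.145). Bhlhe41, a transcriptional repressor, had -0.83 ± 0.28 (SE, limma adjusted p = 0.272). Car9, a carbonic anhydrase that is widely used as a hypoxia marker, had 32.5 ± 9.91 (SD, n = 5) and 31.9 ± 8.60 (SD, n = 6), with a log2 fold change of -0.01 (95% interval -0.52 to 0.50). Without PBS 4, Ddit4 and Adm passed the threshold, at limma adjusted p values of 0.0732 and 0.0796, and without PBS 3 and PBS 5 Ddit4 passed it at 0.052. The same omission brought Fam162a (0.28, limma adjusted p = 0.016), Elob (0.29, limma adjusted p = 0.0269) and Kdm3a (-0.26, limma adjusted p = 0.0739) past the threshold. Without PBS 3 and PBS 5, 9 of the 80 genes thus passed it, beside 1967 of all 19170 genes tested. These shares are similar, so nothing is read from this count.

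**Figure D3:**
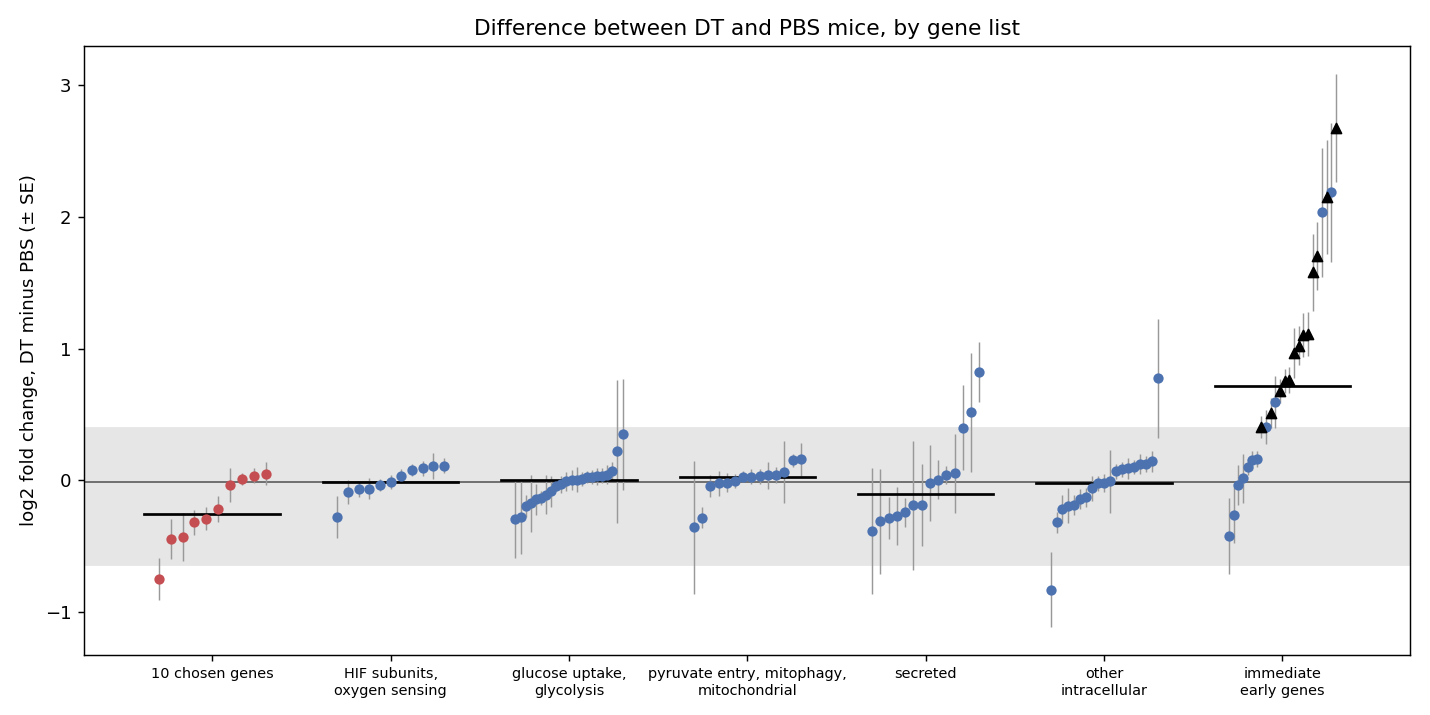
Log2 fold change, DT minus PBS, ± SE for each tested gene, by list, with the median of each list as a black bar, the median of all genes as a grey line and the 5th to 95th percentile of all genes as a grey band. The chosen genes (red) are shown with no test, black triangles are genes of the other lists past a limma adjusted p of 0.1, and these stand in the immediate early genes alone.

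The mice were not alike within a group, and several of the 10 genes moved together among them. For each gene the mean of its group was subtracted from the log2 level in each mouse, so that the difference between DT and PBS played no part. The correlation of these deviations across the 11 mice was computed for the 45 pairs of genes. It was positive in 38 and above 0.5 in 15, with a median r of 0.27. Shares over all pairs of genes were not computed. The median r of each of the 10 genes with the other 13467 genes averaging 10 or more normalized counts lay between -0.03 and 0.01. The highest pairs were Slc2a1 with Bnip3 (r = 0.85), Egln3 with Ldha (r = 0.83) and Ankrd37 with Pfkfb3 (r = 0.80). Pdk1 and Hif1a took part in no pair above 0.5, and their highest values were 0.45 for Pdk1 with Pfkfb3 and 0.10 for Hif1a with Ankrd37. The pairs share their libraries, and PBS 4 weighed in them. Without PBS 4 the median r was 0.14, 30 pairs were positive and 7 of the 15 pairs above 0.5 stayed above it. For the highest pairs, without PBS 4 the correlation of Slc2a1 with Bnip3 was 0.66, that of Egln3 with Ldha 0.78 and that of Ankrd37 with Pfkfb3 0.73, and without PBS 3 and PBS 5 they were 0.86, 0.69 and 0.70. The plot of deviations shows PBS 4 low in most of the genes.

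**Figure D4:**
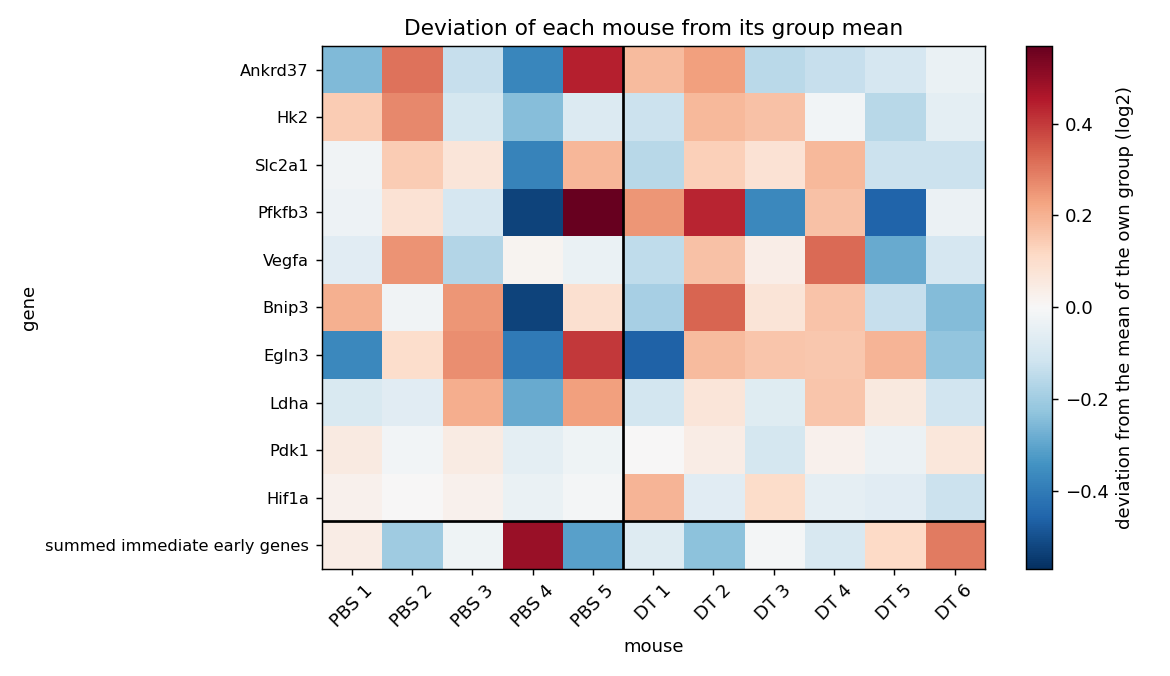
Deviation of each mouse from the mean of its own group (log2, red above and blue below) for the 10 genes and, in the lowest row, for the summed immediate early genes, with PBS mice left and DT mice right of the line. Slc2a1, Pfkfb3, Bnip3 and Egln3 are low in PBS 4, where the immediate early genes are high, and the rows of Pdk1 and Hif1a are pale.

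Among the other 13467 genes averaging 10 or more normalized counts, the gene most like each of the 10 in these deviations was named. Ldha was nearest to Cstb (r = 0.99) and Egln3 to Tuba8 (r = 0.97). They had 939 (6.97%) and 423 (3.14%) genes with r above 0.8, so a high r with them was not particular to the chosen genes. The others had between 18 (0.134%) and 176 (1.31%) such genes. Bnip3 was nearest to Pcdhga7 (r = 0.96), Slc2a1 to Commd1 (r = 0.95), Pfkfb3 to Slamf7 (r = 0.94), Vegfa to E330034L11Rik (r = 0.93), Hk2 to Ppp1r3b (r = 0.91), Ankrd37 to Zfand2b (r = 0.91), Pdk1 to Irx2 (r = 0.91) and Hif1a to Sfxn3 (r = 0.90). These are the highest of many correlations over 11 mice and are given as a description.

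Immediate early genes, which are transcribed within minutes of a stimulus to the cell, differed between the groups on a larger scale. Of 24 such genes 13 rose after DT (limma adjusted p under 0.1) and 0 fell, with a median log2 fold change of 0.72. The list was drawn up with this result known, so its direction is not independent evidence. Summed over the list, they had between 62245 and 108390 normalized counts in the PBS mice, PBS 4 being the highest, and between 112529 and 162568 in the DT mice. The groups did not overlap, so that the immediate early level and the treatment cannot be told apart for the 10 genes. The list took 0.305% to 0.801% of the counts of a mouse. Klf4 led the sum with a mean of 23690 normalized counts. Its log2 fold change was 0.16 ± 0.06 (SE, limma adjusted p = 0.307), so the sum does not weigh the 24 genes evenly.

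Within the groups, where this confounding does not enter, the deviations of all 10 genes correlated negatively with those of the summed immediate early genes when all mice were used. This relation was examined after the data had been seen. Several of the 10 genes were correlated with each other, so the shared sign does not stand for 10 separate results. For Slc2a1 r was -0.87 and Spearman's rho -0.81 (two-sided exact permutation test over the 86400 reorderings within groups, n = 11 mice, p = 0.00361 and 0.0075, adjusted over the 10 genes 0.0361 and 0.0375). For Pfkfb3 r was -0.78 and rho -0.86 (exact permutation p = 0.0119 and 0.00297, adjusted 0.0397 and 0.0297), and for Ankrd37 r was -0.78 and rho -0.74 (exact permutation p = 0.0113 and 0.0263, adjusted 0.0397 and 0.0703). The other genes did not pass an adjusted p of 0.05, with r of -0.75 for Bnip3, -0.69 for Ldha, -0.61 for Egln3, -0.54 for Hk2, -0.35 for Vegfa, -0.27 for Hif1a and -0.10 for Pdk1. Across the 13477 genes averaging 10 or more normalized counts the median r was 0.01. Of these genes 0.252% had a lower r than Slc2a1 and 1.45% a lower r than Pfkfb3. In the PBS mice alone r was -0.99 for Slc2a1, -0.93 for Pfkfb3 and -0.88 for Ankrd37. In the DT mice alone r was weaker, at -0.63, -0.60 and -0.50 for these genes.

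PBS 4 and DT 6 lay farthest from the median of the summed immediate early genes. Without these mice r was -0.67 for Slc2a1, -0.87 for Pfkfb3 and -0.87 for Ankrd37. Without PBS 4 alone it was -0.70, -0.68 and -0.69, and 0 of the 10 genes passed the adjusted p of 0.05, these 3 having an adjusted exact permutation p of 0.165. The call did not hold in 7 of the 11 analyses that left out a mouse, those without PBS 1, PBS 2, PBS 3, PBS 4, PBS 5, DT 2 or DT 5, in which 0 genes passed, while r lay between -0.87 and -0.68 for these 3 genes in each. For Bnip3 the r was -0.21 without the farthest mice, for Ldha -0.29, and for Hk2 -0.25. The sign turned for Hif1a without these mice (0.14) and for Pdk1 without PBS 4 (0.30). Without PBS 3 and PBS 5 r was -0.84 for Slc2a1, -0.71 for Pfkfb3 and -0.73 for Ankrd37.

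**Figure D5:**
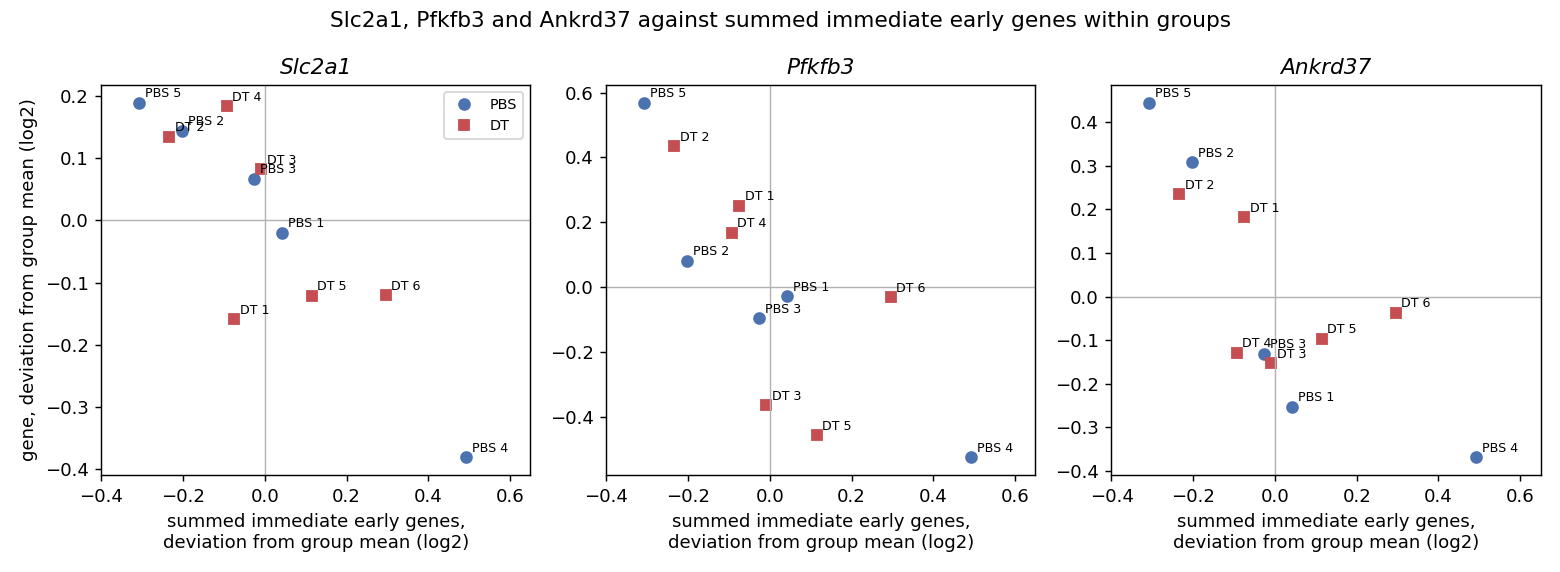
Deviation from the group mean (log2) of Slc2a1, Pfkfb3 and Ankrd37 against that of the summed immediate early genes, with a point for each PBS mouse (blue circles, n = 5) and DT mouse (red squares, n = 6). All panels run from upper left to lower right, and PBS 4 is the point at the lower right.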

How the data were processed

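Gingival epithelium of 11 mice was measured by poly-A RNA sequencing. The authors trimmed, aligned and counted the reads per gene, dropped genes whose reads summed to fewer than 10 over the mice and divided by size factors, so the deposited values are normalized counts, which is other than raw counts. The methods name GRCm38, and the authors' processing notes in the labels name GRCm39, with cutadapt 2.10, TopHat2 2.1.1, HTSeq 2.01 and DESeq2 1.36.0. All columns were used. Each was matched to a mouse by its description label; for PBS 5 the title carries another library number (6) than the description and column (5).

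Read totals were recovered from the value of a single read and used for depth only. DT and PBS were compared over 19170 genes with limma 3.58.1 in R 4.3.3 (trend, no covariate, log2(value + 1), Benjamini-Hochberg adjustment, threshold 0.1). Where nothing says otherwise, p-values measure the spread between these mice. Exon lengths came from GENCODE on GRCm38. The members and lists were chosen with earlier results of these data known. Named were the 10 genes, their paralogs, the gene most correlated with each member and the leading marker. In each pathway list the genes past the threshold were named, or the 2 with the smallest p. Epas1, Arnt, Vhl, Pkm, Aldoa, Pgk1, Car9, Fam162a, Elob, Kdm3a, Cd207 and Klf4 were added after their values were seen. Scripts were tested on simulated data. A gene that the naming rule holds by name, not by its p, is not reported here and was left out of the lists and shares; it did not pass the threshold.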

Additional observations from a re-analysis of the deposited data

How the results depend on the processing

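Other pseudocounts, a filter on low values and TMM scaling left the number of genes past the threshold between 104 and 108 and 1 of the 10 genes past it. Array weights gave 189 genes in all and 1 in the pathway lists, Ddit4. Leaving out a mouse in turn gave 27 to 259 genes in all, 0 to 3 of the 10 genes and 0 to 2 genes of the pathway lists. Without PBS 3 and PBS 5 there were 1967 of 19170 genes in all, 2 of the 10 and 9 of the 80 pathway genes. The share of the pathway genes was similar to that of all genes, and the cause of the rise was not tested. Counts among the 10 are a description, since this contrast was in view when they were picked. The median correlation among the 10 genes lay between 0.14 and 0.39 without a mouse, and was 0.23 as rho and 0.45 without PBS 3 and PBS 5. With the longest transcript as length, the shares were 21.0% for Hk2, 96.2% for Ldha, 22.3% for Pdk1 and 62.0% for Hif1a. The labels number the mice in both groups. A replicate block by title number left 36 genes in all and 0 of the 10, and by library number 0 in all and 0 of the 10; each drops a DT mouse that has no partner. Deviations of same-numbered mice correlated at -0.23 to 0.32. These few values cannot show whether same-numbered mice were paired in some way, which was not tested further. Tests on recovered counts with edgeR and DESeq2 were planned and not run. Depth limits Ankrd37 most, and Pfkfb3 next with 104 to 268 reads per mouse.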
